A study of Homo sapiens with 27 samples.

Results

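CRYAB, RNASE1, SDC1, SELENBP1, PLLP and ENC1 are 6 of the 13523 genes measured in 501mel, a human melanoma cell line that is high in MITF. They were picked from the genes at the ends of the comparison of TFE3 knockout cells with unedited cells and of TFE3/TFEB double knockout cells with unedited cells, both without drug, among genes on the autosomes. All 6 passed the filter on low values. RNA was read from its 3′ ends (QuantSeq Forward), so that a read stands for the end of 1 transcript, and values are normalised read counts on a per-million scale. The 9 groups were labelled with 3 libraries each. Unedited cells (WT) either had no treatment, spent 12 h in HBSS (saline with glucose but without amino acids) or received the mTOR inhibitor Torin at 250 nM for the same time. The TFE3 knockout (TFE3 KO), the TFEB knockout (TFEB KO) and the knockout of both genes (DKO) each had a 12 h control and a Torin group. The labels and the methods of the study name different base media, DMEM and RPMI.

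The knockouts were made with Cas9 and each genotype is a single clone per the methods, so clone and genotype cannot be told apart in any comparison below. The methods do not say whether DKO was derived from the TFE3 KO clone, so shifts shared by these clones may not be independent. WT cells without drug are labelled as not treated, with no time, and the knockouts without drug as 12 h controls, so genotype and control handling cannot be told apart in the comparisons without drug, and the response of WT to Torin is set against another kind of control. The labels do not say that the libraries of a group came from separate cultures, so p-values measure only the spread between these libraries, which may be technical. Libraries held 4147050 to 6526392 reads, and 3 reads correspond to a value of 0.460 to 0.711. Fewer cells that express a gene and less RNA per cell cannot be told apart in such bulk samples. The column of WT HBSS replicate 3 and that of WT Torin replicate 1 held the same value for each of the 13523 genes, so both were left out, which left 25 libraries and n = 2 for these groups. TFE3 was between 23.8 and 24.3 in WT and between 5.06 and 7.59 in both TFE3-null clones without drug, and it was 9.13 to 14.0 in TFE3 KO with Torin. TFEB was 2.34 to 3.96 in WT without drug, 0.750 to 1.66 in TFEB KO, 0.177 to 1.56 in TFE3 KO and 0.156 to 1.05 in DKO, so its RNA in TFE3 KO overlapped that in the clones edited at TFEB. All 8 melanocyte markers examined were in the table, and none of 5 endothelial and 5 immune markers were.

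The transcription factors TFE3 and TFEB belong to the MITF family. When mTORC1 is active they are phosphorylated and held in the cytoplasm, and when amino acids are lost or mTOR is inhibited they enter the nucleus and switch on lysosomal and metabolic genes. The 6 genes belong to no single pathway. CRYAB (αB-crystallin) is a small heat shock protein that keeps unfolding proteins soluble. RNASE1 is a secreted ribonuclease, SDC1 (syndecan-1) carries heparan sulphate at the cell surface, and SELENBP1 is a methanethiol oxidase that binds selenium. PLLP (plasmolipin) is a MARVEL domain membrane protein known from myelin, and ENC1 is an adaptor of cullin-3 ubiquitin ligases with kelch repeats.

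The genes lie on 6 chromosomes, all on the - strand of hg38. CRYAB spans chr11:111908564-111923722, and within that span HSPB2 (chr11:111912734-111914093, RefSeq) runs on the other strand. HSPB2 was not analysed here, and the use of strand in counting is not given in the sources used here. RNASE1 is at chr14:20801228-20802855, SDC1 at chr2:20200797-20225433, SELENBP1 at chr1:151364304-151372707, PLLP at chr16:57248547-57284672 and ENC1 at chr5:74627406-74641424. A gene is called here when limma gave an adjusted p below 0.05 together with a log2 fold change of 1 or more in either direction. Of the 5 nearest tested genes on each side of every member, 0 of 10 were called in TFE3 KO or DKO against WT with Torin, with medians between -0.20 and 0.34 on the log2 scale. This description was added after the members' values were known.

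Promoters are shown because TFE3, TFEB and MITF bind the E-box letters CACGTG and CATGTG, and their longer form TCACGTGA. RefSeq windows (GRCh38.p14, 250 bases before to 50 after a start) were read for RNASE1, SDC1 and PLLP, and those of CRYAB, SELENBP1 and ENC1 were not used here. The window of the outermost start of each gene is printed 5′ to 3′ on the gene's - strand. Capitals mark TATAA and GGGCGG on either strand, letters added to the search after the sequences were read.
RNASE1 (chr14:20802795-20803094): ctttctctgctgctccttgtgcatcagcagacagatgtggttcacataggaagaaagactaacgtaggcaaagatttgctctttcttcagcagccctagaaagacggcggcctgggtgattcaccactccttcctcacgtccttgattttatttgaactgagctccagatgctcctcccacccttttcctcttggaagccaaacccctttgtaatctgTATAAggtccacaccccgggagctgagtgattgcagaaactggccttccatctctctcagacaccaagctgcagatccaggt
SDC1 (chr2:20225426-20225725): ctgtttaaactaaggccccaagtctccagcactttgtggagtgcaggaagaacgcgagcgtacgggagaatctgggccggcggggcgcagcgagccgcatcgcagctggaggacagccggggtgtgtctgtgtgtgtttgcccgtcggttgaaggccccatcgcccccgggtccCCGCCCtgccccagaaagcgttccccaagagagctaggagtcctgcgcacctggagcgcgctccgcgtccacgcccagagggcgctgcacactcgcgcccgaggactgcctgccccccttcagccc
PLLP (chr16:57284623-57284922): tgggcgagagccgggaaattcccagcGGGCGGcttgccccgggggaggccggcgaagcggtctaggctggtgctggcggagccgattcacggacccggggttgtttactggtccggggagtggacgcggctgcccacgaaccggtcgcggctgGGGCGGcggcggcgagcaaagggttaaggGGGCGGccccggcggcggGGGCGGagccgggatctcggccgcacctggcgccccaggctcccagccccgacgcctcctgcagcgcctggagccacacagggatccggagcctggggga
None of the 5 windows of these genes, which include a second start each for RNASE1 and SDC1, held the E-box CACGTG, its longer form TCACGTGA, the other E-box form CATGTG, the heat shock element GAANNTTC or the AP-1 letters TGACTCA on either strand. Of 35116 RefSeq promoters of the same length, the first of these was held by 7.26%, the second (which contains it) by 0.980%, the third by 11.1%, the heat shock element by 6.77% and the AP-1 letters by 4.95%. Among the 14221 of genes tested here these shares were 9.46%, 1.64%, 7.77%, 4.89% and 3.49%. The RNASE1 window has TATAA beginning 32 bases before the start, which 20.4% of all promoters and 11.7% of those of tested genes hold somewhere, and the second SDC1 window has it after the start. The SDC1 and PLLP windows have GGGCGG, held by 45.0% and 65.4%. The absence of letters from these windows says nothing of more distant sites.

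**Figure D1:**
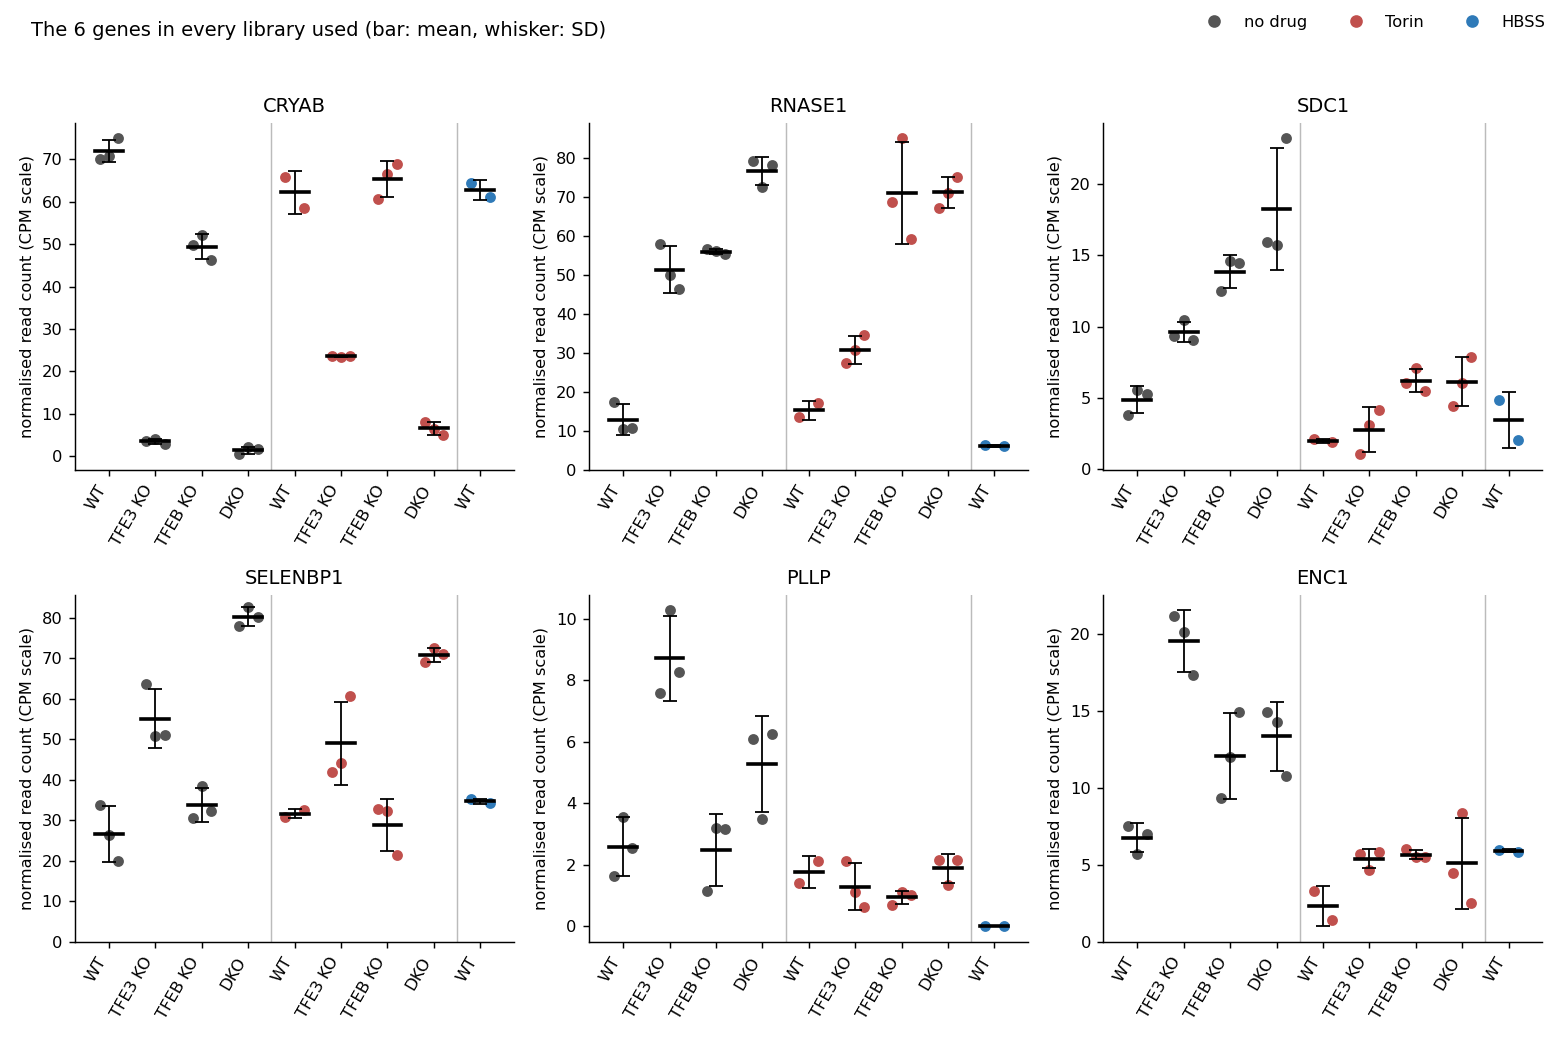
Normalised read count (y axis, linear, one scale per panel) of each of the 6 genes in the 25 libraries used, by genotype, with no drug in grey, Torin in red and HBSS in blue. Points are libraries, the horizontal bar is the group mean and the whisker the SD. CRYAB is low in TFE3 KO and DKO alone, whereas RNASE1 and SDC1 without drug are high in all 3 knockouts.

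Without drug the members differ from WT because they were picked for it, so these values are a description and carry no test. CRYAB was 70.2, 70.9 and 74.9 in the WT libraries, 3.53, 3.99 and 2.96 in TFE3 KO, and 0.467, 2.09 and 1.72 in DKO. Mean CRYAB was thus 20.6-fold lower in TFE3 KO and 50.4-fold lower in DKO, and 1 DKO library held only 3 CRYAB reads. RNASE1 was 17.4, 10.5 and 10.7 in WT, 57.9, 50.0 and 46.3 in TFE3 KO and 79.3, 72.7 and 78.1 in DKO, with no overlap of either clone with WT.

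SELENBP1 was 33.9, 26.3 and 19.9 in WT, 63.6, 50.8 and 51.0 in TFE3 KO and 77.9, 82.6 and 80.3 in DKO. SDC1 was 3.78, 5.54 and 5.27 in WT, 9.36, 10.4 and 9.04 in TFE3 KO and 15.9, 15.7 and 23.2 in DKO. Both genes stood higher in DKO than in TFE3 KO in every library. All 6 members were without overlap between these clones beside 21.6% of all genes, a count that is not independent of the choice. ENC1 had the opposite order, at 7.56, 5.74 and 7.03 in WT, 21.2, 20.1 and 17.3 in TFE3 KO and 15.0, 14.3 and 10.8 in DKO. PLLP was 1.64, 3.56 and 2.54 in WT, 7.59, 10.3 and 8.27 in TFE3 KO and 6.08, 3.49 and 6.26 in DKO. The lowest DKO library lay within the range of WT for PLLP, so its shift in DKO was less clear than the others. Ranks were taken over called autosomal genes with a mean of at least 5 and no overlap with WT. At the upper end, SDC1 and SELENBP1 ranked 2 and 3 in DKO, and PLLP and ENC1 did so in TFE3 KO. Picking genes at the end of 1 clone favours that clone, so the order of the clones for these genes follows in part from the choice.

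On the log2(value + 1) scale the fitted differences from WT were -4.03 for CRYAB, 1.95 for RNASE1, 0.87 for SDC1, 1.04 for SELENBP1, 1.47 for PLLP and 1.40 for ENC1 in TFE3 KO. In DKO they were -4.98, 2.52, 1.71, 1.58, 0.81 and 0.88 in the same order. The differences of SDC1 in TFE3 KO and of PLLP and ENC1 in DKO were under 1. Just outside the choice lay ICOS in TFE3 KO (1.27) and KIAA0226L in DKO (1.53) at the upper end, and PSAT1 at the lower end (-3.98 in TFE3 KO and -4.31 in DKO). SEPT11, at -4.20 in TFE3 KO, ranked below CRYAB and was not among the 6 genes.

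TFEB KO was not used to choose the genes, but its comparison with WT shares the WT libraries and so is also given without a test. RNASE1 was 56.7, 56.0 and 55.4 in TFEB KO, within the range of TFE3 KO and above every WT library. SDC1 was 12.5, 14.6 and 14.4, above every library of both WT and TFE3 KO. The higher level of these genes without drug was therefore not limited to the TFE3-null clones. CRYAB was 49.9, 52.1 and 46.3 in TFEB KO, below every WT library and over 10 times every TFE3 KO library. The log2 difference from WT was -0.54 (95% interval -0.88 to -0.19) for CRYAB, 2.07 for RNASE1, 1.35 for SDC1, 0.35 for SELENBP1, -0.07 for PLLP and 0.74 for ENC1. CRYAB, RNASE1, SDC1 and ENC1 did not overlap between TFEB KO and WT, where 28.2% of all genes did not.

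Torin libraries were not used to choose the genes and give the tests that follow. They come from the same clones, so they are new libraries but not new clones, and the 3 knockouts are compared with the same 2 WT Torin libraries. The spread behind each test was estimated over all 25 libraries, including those that chose the genes, so the p-values are not wholly independent of the choice. The question is which of the shifts are also seen when mTOR is inhibited.

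CRYAB was 65.9 and 58.5 in WT with Torin, 23.5, 23.4 and 23.7 in TFE3 KO and 8.15, 6.45 and 5.12 in DKO. Every TFE3-null library lay below every WT library, and DKO below TFE3 KO. CRYAB was called lower in TFE3 KO (log2 fold change -1.36 ± 0.191 SE, adjusted p 8.09e-07, limma) and in DKO (-3.08, 95% interval -3.46 to -2.69, adjusted p 2.96e-17). Levels of 60.7, 66.6 and 69.0 in TFEB KO spanned those of WT (0.07, interval -0.31 to 0.46, adjusted p 0.839), an interval that lies above the difference of TFE3 KO. The TFE3-null clones also differed from TFEB KO directly, by -1.43 for TFE3 KO (adjusted p 3.06e-09) and by -3.15 for DKO (adjusted p 6.08e-20), and DKO lay 1.72 below TFE3 KO (log2 fold change -1.72, adjusted p 2.18e-10). CRYAB was the 1 member called in TFE3 KO against WT with Torin, where 1.94% of genes were called.

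RNASE1 with Torin was 13.6 and 17.1 in WT, 27.4, 30.7 and 34.5 in TFE3 KO, 67.2, 71.1 and 75.2 in DKO and 68.6, 85.1 and 59.3 in TFEB KO. All 3 knockouts lay above WT, and TFE3 KO lay below both other knockouts. In TFE3 KO the log2 difference of 0.97 (SE 0.155) had an adjusted p of 1.22e-05 but fell just under the fold threshold, which it passed without WT Torin replicate 3 (1.12) or TFE3 KO Torin replicate 1 (1.05). RNASE1 was called higher in DKO (2.15, adjusted p 4.50e-15) and in TFEB KO (2.13, adjusted p 1.84e-14). DKO and TFEB KO did not differ detectably (0.02, interval -0.26 to 0.30, adjusted p 0.939), while TFE3 KO was lower than TFEB KO (-1.17, adjusted p 2.95e-09) and DKO was higher than TFE3 KO (1.18, adjusted p 1.91e-08). The highest RNASE1 with Torin was thus in the TFEB KO and DKO clones. TFEB RNA with Torin was 4.27 and 5.63 in WT, 1.34 to 2.29 in TFE3 KO, 0.611 to 3.45 in TFEB KO and 0.190 to 0.984 in DKO. These levels do not give TFEB protein, and a part of TFEB in the RNASE1 pattern was not tested.

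SELENBP1, the methanethiol oxidase, was 30.9 and 32.5 in WT with Torin, 42.0, 44.3 and 60.8 in TFE3 KO, 69.1, 72.6 and 71.0 in DKO and 32.8, 32.4 and 21.6 in TFEB KO. Every library of the clones without TFE3 lay above WT, while those of TFEB KO spanned it. The gene was called in DKO against WT (1.14, interval 0.80 to 1.48, adjusted p 7.02e-06) and against TFEB KO (1.29, adjusted p 1.27e-08). In TFE3 KO it was higher with adjusted p 0.0172 against WT (0.59) and 0.000132 against TFEB KO (0.75), both under the fold threshold. TFEB KO was not distinguishable from WT (-0.15, interval -0.49 to 0.19, adjusted p 0.577). DKO exceeded TFE3 KO by 0.54 (adjusted p 0.0156), again under the threshold.

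SDC1 was low with Torin, at 2.11 and 1.90 in WT, 1.06, 3.12 and 4.16 in TFE3 KO, 4.46, 6.07 and 7.87 in DKO and 6.04, 7.07 and 5.50 in TFEB KO. The TFE3 KO libraries spanned the WT values, and those of DKO and TFEB KO lay above both. It was called higher in DKO (1.22 ± 0.284 SE, adjusted p 0.00240) and TFEB KO (1.26, adjusted p 0.00125) against WT but not in TFE3 KO (0.23, interval -0.34 to 0.80, adjusted p 0.688). SDC1 was called lower in TFE3 KO than in TFEB KO (-1.02, adjusted p 0.00127), a call lost without TFE3 KO Torin replicate 1 (-0.64) or TFEB KO Torin replicate 2 (-0.94). DKO against TFE3 KO gave 0.99 (adjusted p 0.00751), just under the fold threshold, which it passed without TFE3 KO Torin replicate 2 (1.10) or 3 (1.26) or DKO Torin replicate 1 (1.17). Markers of other cell types also differed between the clones. The sum of the keratins KRT8 and KRT18, 2 of 6 epithelial markers, was 5.74 to 7.61 in WT, 10.6 to 16.1 in TFE3 KO, 13.5 to 18.4 in DKO and 5.69 to 6.96 in TFEB KO without drug, and 1.17 to 8.06, 4.99 to 12.5, 6.26 to 12.4 and 3.46 to 4.68 with Torin. It was thus higher in the TFE3-null clones without drug, while TFEB KO overlapped WT. SELENBP1 had the same order of overlap, though its TFEB KO difference from WT was 0.35 (interval 0.05 to 0.65), and SDC1 did not. The sum of COL1A1 and PDGFRA, 2 of 6 fibroblast markers, was 0.396 to 1.37, 0.460 to 1.24, 3.27 to 5.40 and 2.32 to 4.31 in the same order without drug, and 1.66 to 2.34, 0.416 to 1.56, 4.13 to 6.31 and 2.76 to 5.81 with Torin. This sum was highest in DKO and TFEB KO, as SDC1 was. It rests on few reads, since the median over the 25 libraries was 1.84 for COL1A1 and 0.46 for PDGFRA. The medians of KRT18 and KRT8 were 6.63 and 0.353, so the keratin sum is mostly KRT18. The other 4 markers of each list (EPCAM, CDH1, KRT5 and KRT14, and COL1A2, COL3A1, PDGFRB and DCN) were looked up and were not in the table. The part of such transcripts in the SDC1 and SELENBP1 values was not tested.

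ENC1 with Torin was 3.28 and 1.42 in WT, 5.72, 4.68 and 5.83 in TFE3 KO, 4.46, 8.35 and 2.56 in DKO and 6.04, 5.50 and 5.50 in TFEB KO. The single knockouts lay above WT and DKO overlapped it. Only TFEB KO was called (1.05, adjusted p 0.00424), and this was lost without WT Torin replicate 3 (0.64). TFE3 KO differed by 0.99 (SE 0.268, adjusted p 0.0117), which passed the fold threshold without WT Torin replicate 2 (1.40) or TFE3 KO Torin replicate 2 (1.07). DKO differed by 0.81 (adjusted p 0.0366), which passed it without WT Torin replicate 2 (1.23) or DKO Torin replicate 3 (1.15). These values rest on few reads, and the knockouts did not differ detectably from each other (adjusted p 0.864 for TFE3 KO against TFEB KO, 0.484 for DKO against TFEB KO and 0.735 for DKO against TFE3 KO).

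PLLP with Torin was 1.41 and 2.13 in WT, 2.12, 1.11 and 0.624 in TFE3 KO, 2.15, 1.33 and 2.17 in DKO and 0.690, 1.10 and 1.02 in TFEB KO. The TFE3-null clones overlapped WT, with differences of -0.32 (interval -0.96 to 0.33, adjusted p 0.610) in TFE3 KO and 0.06 (interval -0.59 to 0.70, adjusted p 0.943) in DKO. The TFEB KO libraries lay below those of WT, with a difference that did not pass (-0.51, interval -1.16 to 0.13, adjusted p 0.288).

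Over the 6 genes, those called against WT with Torin numbered 1 in TFE3 KO, 4 in DKO (2.37% of all genes were called) and 3 in TFEB KO (2.44%). Between knockouts with Torin, 3 members were called for TFE3 KO against TFEB KO (4.97%), 2 for DKO against TFEB KO (3.81%) and 2 for DKO against TFE3 KO (1.42%). Libraries of 4 members did not overlap between TFE3 KO and WT with Torin, beside 37.1% of all genes. The deposited values were already scaled between libraries, and the median log2 fold change over all genes was between -0.0264 and 0.0271 in every comparison.

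**Figure D2:**
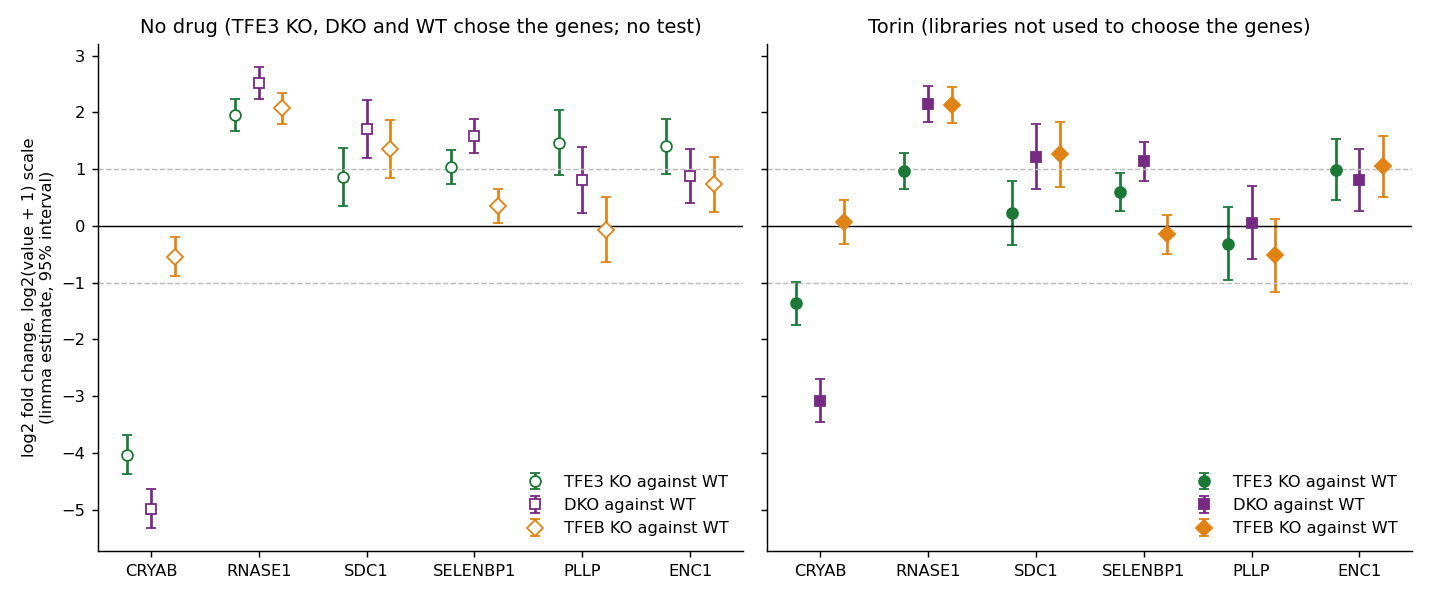
Log2 fold change of each of the 6 genes in TFE3 KO (green), DKO (purple) and TFEB KO (orange) against WT, without drug (left, open symbols, no test) and with Torin (right, filled symbols), as limma estimates on the log2(value + 1) scale with 95% intervals. Dashed lines mark a change of 1. With Torin, CRYAB stays below 0 in both TFE3-null clones, and the intervals of PLLP include 0 in all 3 knockouts.

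The response to Torin was tested in TFEB KO, whose libraries were not used in the choice. SDC1 fell from 12.5, 14.6 and 14.4 to 6.04, 7.07 and 5.50 (-1.05 ± 0.254 SE, adjusted p 0.000857), and was the 1 member called beside 5.02% of all genes. Without TFEB KO Torin replicate 3 the difference was -0.98, just under the fold threshold. ENC1 went from 9.34, 12.0 and 14.9 to 6.04, 5.50 and 5.50 (-0.95, adjusted p 0.00134), and PLLP from 1.14, 3.19 and 3.15 to 0.690, 1.10 and 1.02 (-0.79, adjusted p 0.0249). Neither reached the fold threshold on this scale, and both passed it without TFEB KO control replicate 1 (each at -1.11) and with edgeR on the recovered reads (-1.05 and -1.38). With edgeR or DESeq2, 3 members were therefore called. CRYAB (0.40, interval 0.05 to 0.74, adjusted p 0.0605), RNASE1 (0.32, adjusted p 0.0624) and SELENBP1 (-0.23, adjusted p 0.221) did not pass.

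In the other genotypes the no-drug libraries had served to choose the genes, so their response to Torin is described without a test. Mean CRYAB went from 3.49 ± 0.513 to 23.5 ± 0.170 (SD, n = 3) in TFE3 KO and from 1.43 ± 0.851 to 6.57 ± 1.52 in DKO, with no overlap, while it was 72.0 ± 2.58 (SD, n = 3) and 62.2 ± 5.17 (SD, n = 2) in WT. The log2 differences were 2.46 in TFE3 KO, 1.69 in DKO and -0.21 (interval including 0) in WT. The low values without drug chose CRYAB, so these differences are not independent of the choice. SDC1 was lower with Torin by 0.95 in WT (log2 difference -0.95), with -1.59 in TFE3 KO and -1.44 in DKO, and ENC1 gave -1.26, -1.68 and -1.33. Lower levels of these genes with Torin were thus seen in each of the 4 genotypes. PLLP gave -0.35, -2.13 and -1.10, and RNASE1 0.26, -0.72 and -0.11. SELENBP1 moved little, with 0.27, -0.18 and -0.18. Libraries with and without Torin did not overlap for 3 members in WT, 5 in TFE3 KO and 5 in DKO, beside 60.2%, 58.4% and 57.1% of all genes.

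**Figure D3:**
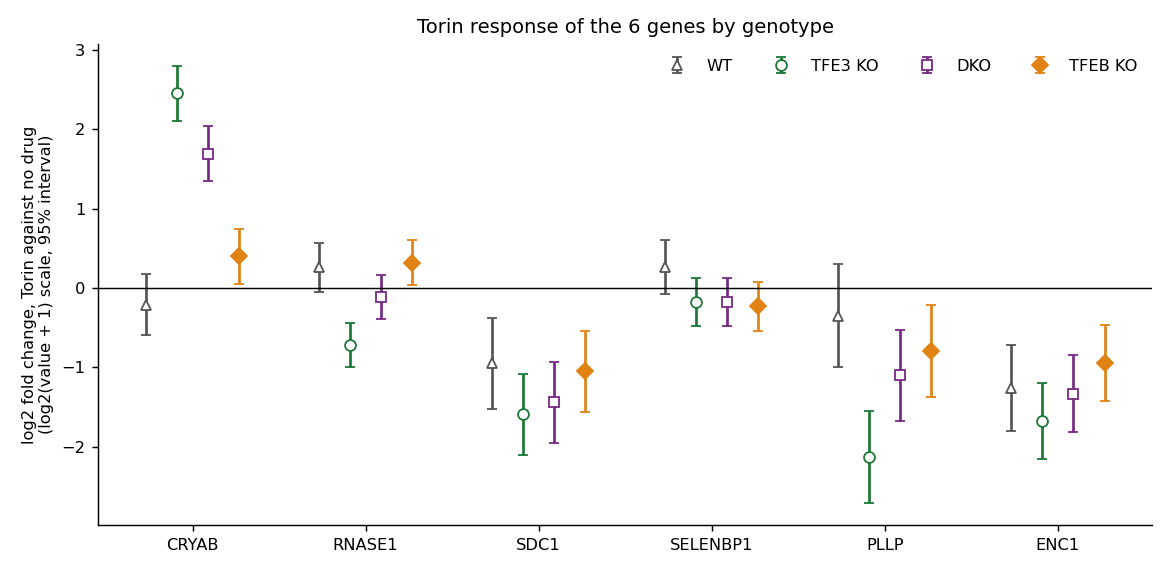
Log2 fold change of each gene with Torin against no drug in WT (grey), TFE3 KO (green), DKO (purple) and TFEB KO (orange), as limma estimates on the log2(value + 1) scale with 95% intervals. Open symbols share no-drug libraries with the choice of the genes and carry no test. CRYAB lies above 0 in TFE3 KO and DKO (2.46 and 1.69) and near 0 in WT, and SDC1 and ENC1 lie below 0 in all 4 genotypes.

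HBSS was given to WT cells only. CRYAB was 64.4 and 61.1 in HBSS, and SELENBP1 was 35.2 and 34.3, and neither differed detectably from WT with Torin (0.01, interval -0.41 to 0.44, adjusted p 0.963, and 0.13, adjusted p 0.586). RNASE1 was 6.44 and 6.07, below every other library, and it was called lower in HBSS than in Torin (-1.16, interval -1.50 to -0.82, adjusted p 1.79e-07). PLLP had 0 reads in both HBSS libraries. Against the floor of 3 reads per library its mean was at least 3.92-fold lower than in untreated WT and at least 2.68-fold lower than with Torin (adjusted p 0.000580). ENC1, at 5.98 and 5.86, was called higher in HBSS than in Torin (1.10, adjusted p 0.00167), and this was lost without WT Torin replicate 3 (0.69). SDC1, at 4.83 and 2.09, was not (0.50, adjusted p 0.183). These 3 calls stand beside 16.6% of all genes, so the share is high for genes at large, and 1 or 0 members were called when the duplicated column was kept as WT Torin or under both labels.

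Taking all 9 groups, mean CRYAB was highest in untreated WT and lowest in DKO without drug. WT untreated lay above every other group without overlap. TFEB KO with Torin, HBSS and WT with Torin followed and overlapped their neighbours in this order. TFEB KO without drug, TFE3 KO with Torin, DKO with Torin, TFE3 KO and DKO were each separated from the group before them. For RNASE1 the 3 highest groups (DKO, DKO with Torin and TFEB KO with Torin) overlapped, and HBSS was the lowest, apart from all others. SDC1 was highest in DKO, then TFEB KO, then TFE3 KO, each separated from the next, and the 6 lower groups overlapped their neighbours. In SELENBP1 the 4 TFE3-null groups were the 4 highest, in the order DKO, DKO with Torin, TFE3 KO and TFE3 KO with Torin, with overlap only between the last 2. PLLP was highest in TFE3 KO and ENC1 likewise, each above all other groups. The no-drug groups of WT, TFE3 KO and DKO chose the genes, so their places in these orders follow in part from the choice.

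Among themselves the 6 genes did not move as a unit. Over the 25 libraries the strongest Pearson correlation of log2(value + 1) was that of CRYAB with SELENBP1 (r = -0.894), and SDC1 with ENC1 had r = 0.700. SELENBP1 with ENC1 had r = 0.318. The libraries share clones and treatments and are not independent, and no p is given. Those that chose the genes are among the 25, so these correlations also follow in part from the choice.

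Genes of like pattern are described without a test, since all 25 libraries served to choose them. By the same measure over 9761 genes with a mean of at least 5, the genes most like CRYAB were WFDC1 (chromosome 16, r = 0.935) and PRKCH (chromosome 14, r = 0.920). WFDC1, a secreted protein with a WAP domain, was 61.3 ± 1.34 in WT, 15.3 ± 3.33 in TFE3 KO, 5.07 ± 0.329 in DKO and 85.3 ± 10.7 in TFEB KO without drug (SD, n = 3). With Torin WFDC1 was 78.9 ± 3.38 (SD, n = 2) in WT, 21.2 ± 4.70 in TFE3 KO and 11.8 ± 3.34 in DKO (SD, n = 3). PRKCH, a protein kinase C, was 12.5 ± 1.40 in WT, 5.36 ± 0.683 in TFE3 KO and 4.86 ± 0.280 in DKO, and 13.3 ± 1.39 (SD, n = 2), 11.9 ± 1.78 and 9.13 ± 1.25 with Torin.

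**Figure D4:**
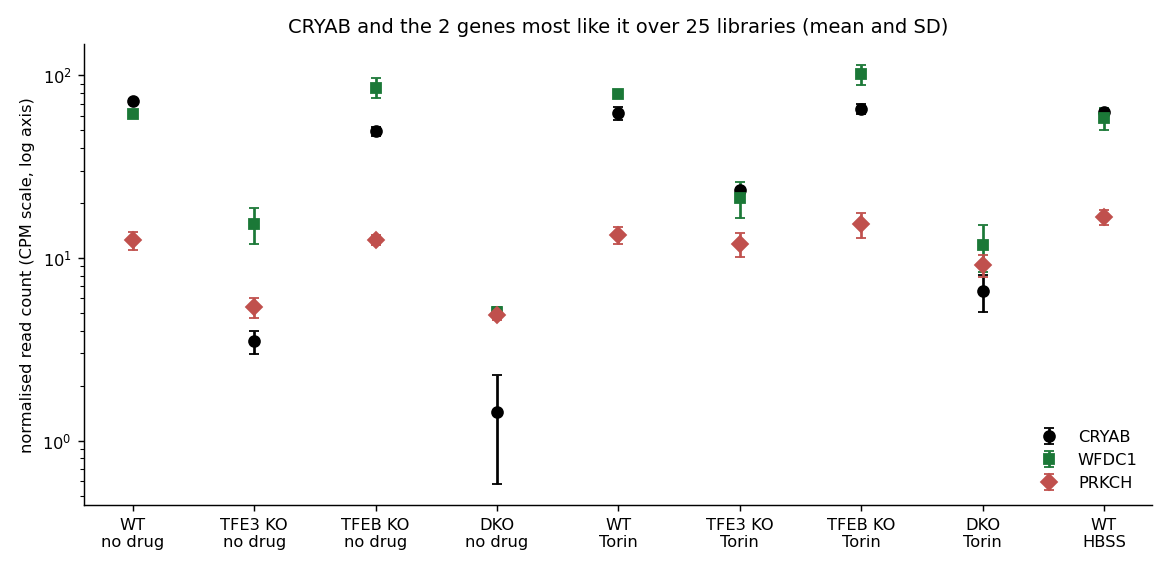
Mean and SD of the normalised read count (log axis) of CRYAB (black), WFDC1 (green) and PRKCH (red) in each group (n = 3, or 2 for WT Torin and WT HBSS). All 3 genes are lowest in DKO without drug, and PRKCH in TFE3 KO with Torin (11.9) lies near its WT levels.

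The genes most like RNASE1 were the cytokine receptor IL27RA (r = 0.915) and the zinc transporter TMEM163 (r = 0.889). TMEM163, like RNASE1, was higher in TFEB KO (19.0 ± 3.31, SD, n = 3) and DKO (17.4 ± 2.40) than in WT (5.92 ± 1.13). With Torin TMEM163 was 30.6 ± 2.71 in TFEB KO, 19.6 ± 2.92 in DKO and 8.26 ± 3.07 (SD, n = 2) in WT. In TFE3 KO mean TMEM163 was 9.78 without drug and 9.76 with Torin. RNASE1 differed there, since its mean without drug in TFE3 KO (51.4) was near that in TFEB KO (56.0). The genes most like SDC1 were PXMP2 (r = 0.895) and KLHL42 (r = 0.878), and those most like SELENBP1 were FARP2 (r = 0.828) and PLIN3 (r = 0.819). For PLLP ORMDL2 (r = 0.886) is named, and for ENC1 ARHGAP18 (r = 0.914) and ZNF503 (r = 0.883). FARP2 was 15.9 ± 5.17 in WT, 30.8 ± 5.68 in TFE3 KO, 30.3 ± 1.94 in DKO and 16.7 ± 1.11 in TFEB KO (SD, n = 3). ARHGAP18 without drug was 49.4 ± 1.64 in WT and 73.8 ± 5.84 in TFE3 KO, and with Torin 30.9 ± 0.423 (n = 2) and 36.9 ± 0.982.

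The relatives and partners of each member were examined in the 8 tested comparisons. Of 9 other small heat shock proteins, HSPB1 and HSPB11 were tested and neither was called in any. HSPB1 without drug was 59.4 ± 3.67 in WT, 36.5 ± 2.68 in TFE3 KO and 51.8 ± 6.35 in DKO (SD, n = 3). Of 7 chaperones that work with them 6 were tested, and 2 were called, both lower with Torin in TFEB KO: DNAJB1, a J-domain partner of HSP70 (-1.60, adjusted p 1.26e-21), and the HSP70 gene HSPA1B (-2.99, adjusted p 5.85e-22), whose near-identical copy HSPA1A makes its count uncertain. Outside the 8 tested comparisons, both were also lower with Torin in WT, TFE3 KO and DKO. Mean HSPA1B went from 64.9 to 10.5 in WT, from 27.2 to 6.71 in TFE3 KO and from 36.6 to 9.33 in DKO. Without drug it was thus lower in the TFE3-null clones than in WT, and it was 87.5 in TFEB KO. Medians of the chaperone list were -0.39 in TFE3 KO and -0.04 in DKO against WT with Torin, beside 0.01 and 0.00 over all genes.

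Of 13 other genes of the ribonuclease A family and its inhibitor, 4 were tested and 0 were called in any of the 8 comparisons (limma). The inhibitor RNH1 was 92.4 ± 7.40 in WT, 86.0 ± 3.29 in TFE3 KO and 91.0 ± 2.24 in DKO (SD, n = 3), and the means of ANG and RNASE4 were 3.18 or less in every group.

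Of 9 other syndecans and glypicans 8 were tested, and they gave 8 calls higher and 8 lower over the 8 comparisons, in which 1.42% to 16.6% of all genes were called. TFE3 KO against TFEB KO with Torin gave 5 of these calls, beside 4.97% of all genes. SDC2, like SDC1, was called higher in TFEB KO than in WT with Torin (1.61, adjusted p 0.000111) and lower in TFE3 KO than in TFEB KO (-2.14, adjusted p 1.07e-08), and GPC3 was called in the same directions (1.28 and -1.41, adjusted p 0.00151 and 2.90e-05). SDC3 fell in the second of these (-1.10, adjusted p 9.29e-14), as did GPC4 (-1.46, adjusted p 2.01e-05), while GPC2 was higher (1.63, adjusted p 7.11e-06). TFE3 KO libraries with Torin held only 2 to 4 reads of SDC2, 2 to 5 of GPC3 and 4 to 5 of GPC4, so these values lie near the floor. The list's median was -0.85 in TFE3 KO against TFEB KO with Torin, beside 0.03 over all genes. GPC5 had 0 reads in TFE3 KO and DKO with Torin, at least 3.84-fold and 4.57-fold under its level of 2.47 ± 1.15 (SD, n = 2) in WT. GPC5 was also called lower in TFEB KO with Torin, at 2 to 3 reads per library (-1.26, adjusted p 0.00206). Of 12 heparan sulphate enzymes and syndecan partners 9 were tested, of which heparanase (HPSE) was called higher in DKO than TFE3 KO with Torin (1.12, adjusted p 0.00805) and HS6ST1 lower in HBSS than Torin (-1.19, adjusted p 0.00148).

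Among 18 other MARVEL domain proteins 11 were tested, with 9 calls lower and 1 higher over the 8 comparisons. HBSS against Torin, where 16.6% of all genes were called, gave 4 of these, and the other 6 were MARVELD1 and MYADM alone. MARVELD1 had 0 reads in all 12 libraries of TFE3 KO and DKO, with or without Torin. With Torin its mean was at least 8.44-fold lower in TFE3 KO and at least 10.0-fold lower in DKO than the 5.43 ± 1.04 (SD, n = 2) of WT (adjusted p 4.62e-09 and 4.16e-09), and at least 4.06-fold and 4.83-fold lower than the 2.61 ± 0.472 (SD, n = 3) of TFEB KO. MYADM, another member of that list, was 34.7 ± 0.274 (SD, n = 2) in WT with Torin, 11.9 ± 0.638 in TFE3 KO (-1.47, adjusted p 1.38e-07) and 31.5 ± 4.36 in TFEB KO (SD, n = 3). MARVELD1 was thus without reads in the clones in which PLLP was higher without drug. In HBSS against Torin, CMTM3 (-1.32), MYADM (-1.12) and MARVELD1 (-1.40) were called lower and CMTM4 (1.01) higher. Of 6 markers of myelinating glia, 4 were in the table, and their sum was 301 to 320 in WT, 270 to 289 in TFE3 KO and 268 to 286 in DKO without drug, so it did not rise with PLLP.

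All 30 other kelch and BTB proteins and cullin partners were tested, and none was called in the knockouts against WT or against TFEB KO with Torin. With Torin in TFEB KO KLHL24 (1.51, adjusted p 2.94e-14) and KLHL3 (1.25, adjusted p 0.00197) rose and KLHL25 fell (-1.02, adjusted p 0.00128), and KBTBD3 was lower in DKO than TFE3 KO (-1.06, adjusted p 0.0160). Mean KLHL24 also rose with Torin in WT (25.5 to 98.5), TFE3 KO (10.7 to 74.5) and DKO (13.3 to 65.15). In these genotypes too, mean KLHL3 was higher and mean KLHL25 lower with Torin. KLHL15 (1.88), KLHL28 (1.37) and KLHL24 (1.27) were called higher and KLHL26 (-1.15) lower in HBSS than in Torin. Of 23 other genes of selenium and sulphur handling 11 were tested, with MSRB1 lower with Torin in TFEB KO (-1.20, adjusted p 4.76e-08) and TXNRD1 higher in HBSS than in Torin (1.72, adjusted p 2.30e-16), and no call between genotypes. Mean MSRB1 was also lower with Torin in WT, TFE3 KO and DKO.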

How the data were processed

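QuantSeq Forward libraries were trimmed by the authors with trim_galore (cutadapt 2.10), checked with FastQC 0.11.9, mapped to hg38 with STAR 2.7.8a and normalised with edgeR. The counter, annotation, scaling method and gene filter are not given in the sources used here. The deposited values are a normalised signal per gene symbol. In every column 100% of values were whole multiples, within 0.01 reads, of the value of 1 read, so read counts were recovered by division. Floors of 3 reads cover counting error only, since reads are not independent molecules.

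The filter kept 13052 genes that reached a value of 1 in 3 or more libraries and left out 471. One coefficient per group was fitted to log2(value + 1) over the 25 libraries with limma 3.58.1 in R 4.3.3 (trend and robust), 2-sided, with Benjamini-Hochberg adjustment over all genes in each comparison. Fold changes on this scale understate those of low genes. Of the symbols, 12306 were placed in GENCODE v44, 942 in RefSeq only and 275 not at all. On simulated data for TFE3 KO against WT with Torin (12732 genes), 100% of genes changed by 2 and 96% of those changed by 1.5 on the log2 scale were recovered, with 3 false calls. The simulation gave every gene the same dispersion and changed only genes above a set mean. It thus says nothing of changes near 1 or of low genes.

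Members and lists were chosen with earlier results of these data known. Members are the 6 symbols, relatives are named when called in a tested comparison or when they are the inhibitor or neighbour of a member, and the 2 genes most like each member are named, except 1 that is not reported here. The relatives HSPB1, ANG and RNASE4 were named after their values were seen, as were KRT8 and KRT18. Alternatives were a pseudocount of 0.1, other filters, rescaling, the duplicated column kept, only the compared libraries, a replicate block, edgeR 4.0.16 and DESeq2 1.42.0 on the recovered counts, and leaving out each library.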

Additional observations from a re-analysis of the deposited data

Results flagged for a closer look

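The estimated CRYAB response to Torin had opposite signs in WT and in each knockout. The WT interval (-0.59 to 0.18) included 0, and the TFEB KO response did not pass (adjusted p 0.0605, limma). In all 4 genotypes the CRYAB libraries with and without Torin did not overlap. The share of all genes without overlap was 60.2% in WT, 58.4% in TFE3 KO, 57.1% in DKO and 47.2% in TFEB KO. The difference in CRYAB response was 2.67 on the log2 scale for TFE3 KO minus WT (2.46 against -0.21). It was 1.90 for DKO minus WT (1.69 against -0.21) and 0.61 for TFEB KO minus WT (0.40 against -0.21). RNASE1 likewise had opposite signs in TFEB KO (0.32) and TFE3 KO (-0.72), a difference of 1.04. These differences were not tested, because the libraries without drug served to choose the genes.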

How the results depend on the processing

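Counts of genes called moved by over 1.5 times under some settings, given here with the reported count in brackets. With a minimum value of 5, which tests fewer genes, they were 162 (253) in TFE3 KO, 194 (309) in DKO and 190 (318) in TFEB KO against WT with Torin. With the duplicated column kept as WT Torin they were 410 in TFE3 KO and 530 in DKO against WT with Torin and 664 (2165) in HBSS against Torin, and under both labels 412, 534 and 595. With edgeR on recovered reads, Torin in TFEB KO gave 1023 (655). The cause was not tested.

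Of the 6 genes, TFE3 KO against WT with Torin had 1 called, and 3 with a pseudocount of 0.1, 2 with the duplicated column as WT Torin, 2 with it under both labels, and 1 to 2 when leaving out a library. Torin in TFEB KO had 1 called, 3 with a pseudocount of 0.1, 3 with edgeR, 3 with DESeq2, and 0 to 3 when leaving out a library. HBSS against Torin had 3 called, 1 with the duplicated column as WT Torin and 0 under both labels. SDC1 in DKO against TFE3 KO with Torin passed the fold threshold at a pseudocount of 0.1 (1.27), with rescaling (1.0), edgeR (1.13) and DESeq2 (1.14). ENC1 in TFEB KO against WT with Torin was 0.67 (adjusted p 0.137) with the duplicated column as WT Torin. CRYAB in the comparisons that chose it was -4.34 in TFE3 KO and -5.78 in DKO at a pseudocount of 0.1.

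Differences that changed sign lay near 0 and passed in no setting. For RNASE1 in DKO against TFEB KO with Torin the value was -0.02 with edgeR, -0.01 with DESeq2 and -0.10 to 0.15 when leaving out a library. For CRYAB in HBSS against Torin it was -0.02 with rescaling and DESeq2, -0.03 with edgeR, -0.00 with the duplicated column as WT Torin and -0.07 to 0.10 when leaving out a library. Leaving out a library also gave -0.04 to 0.62 for SDC1 in TFE3 KO, -0.14 to 0.25 for PLLP in DKO, and -0.01 to 0.16 for CRYAB and -0.25 to 0.04 for SELENBP1 in TFEB KO, against WT with Torin. Against TFEB KO with Torin it gave -0.06 to 0.41 for PLLP and -0.11 to 0.02 for ENC1 in TFE3 KO, and -0.21 to 0.14 for SDC1 and -0.60 to 0.10 for ENC1 in DKO. ENC1 in DKO against TFE3 KO with Torin ranged from -0.53 to 0.16.

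Of 636 values of single genes under settings that kept all libraries, 606 kept their direction and side of the threshold. Same-numbered libraries did not deviate together (4 of 63 pairs with r over 0.1, median 0.00673), so the numbers do not pair them. The fit with a replicate block gave 249 calls in TFE3 KO against WT with Torin and moved no count by over 1.5 times. The fewest reads behind a library's value were 0 for PLLP, 3 for CRYAB, 5 for SDC1 and 6 for ENC1, against 28 for RNASE1 and 102 for SELENBP1.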
